A study of Mus musculus with 38 samples.

Results

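The thymic epithelial identity genes are 10 genes by which the stromal epithelium of the thymus is recognised, and all 10 were on the arrays, of 18300 named genes in all. The rule takes genes by name and uses no measured value, though the list was drawn up with earlier results of these data known. It takes every probe whose platform symbol, current or older, was Foxn1, Trp63, Pax1, Pax9, Aire, Psmb11, Ccl25, Cxcl12, Il7 or Epcam. The keratins were left out. Cxcl12 was read by 2 probes and each other gene by 1. Psmb11 was listed under the older symbol 5830406J20Rik and Epcam under Tacstd1.

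The series compared mouse embryos with hypomorphic Dnmt3b, a de novo DNA methyltransferase, with wild-type embryos of the same 129SvJae x C57BL/6 hybrid background, on 2-colour oligonucleotide arrays. Thymus came from 5 hypomorph embryos at 18.5 days post coitum (dpc), labelled m3/m24 on all but 3 of 18 arrays, and embryonic fibroblasts came from 5 hypomorph embryos at 12.5 dpc on 20 arrays, labelled with an embryo number only. The other channel of each array held a pool of wild-type RNA from 5 samples of the same tissue and age, so the control side counts as 1 sample, and spread among wild-type embryos enters no test. Each embryo had 2 arrays in each dye orientation, except thymus embryo 5 with 1 in each, and 2 thymus arrays had been left out by the submitters for quality. Embryo numbers run from 1 to 5 in both tissues, but the embryos differ in age and were not paired. The labels do not say how the alleles act or which cells each thymus still held. A ratio against a pool gives no level, so the labelled tissues could not be checked against the levels of their markers.

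The thymic stroma forms from the third pharyngeal pouch, and its epithelium guides immigrant lymphoid progenitors through T cell development. Foxn1 drives the maturation of this epithelium and activates genes of its cortex, among them Psmb11 and Ccl25. The cortex selects thymocytes on peptides cut by a proteasome that holds Psmb11, and the medulla presents tissue antigens under the control of Aire. Epithelial cells make up a small share of the organ beside thymocytes, and in bulk RNA fewer epithelial cells and less RNA per epithelial cell cannot be told apart.

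Promoters are shown for 3 genes whose highest thymus values fell in the same embryos, Psmb11, Ccl25 and Cxcl12, with each CpG, the dinucleotide that DNA methyltransferases act on, in capitals. The sequences are RefSeq's for GRCm38.p6, 300 bases around the annotated start, on the plus strand: chr14:54625060-54625359 for Psmb11, chr8:4324960-4325259 for the first start of Ccl25 and chr6:117168285-117168584 for Cxcl12.
Psmb11: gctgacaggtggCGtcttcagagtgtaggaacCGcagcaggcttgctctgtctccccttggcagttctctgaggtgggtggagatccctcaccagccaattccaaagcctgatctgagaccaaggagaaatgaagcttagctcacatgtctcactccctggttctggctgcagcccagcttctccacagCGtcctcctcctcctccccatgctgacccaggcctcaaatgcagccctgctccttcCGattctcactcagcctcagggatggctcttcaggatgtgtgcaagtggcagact
Ccl25: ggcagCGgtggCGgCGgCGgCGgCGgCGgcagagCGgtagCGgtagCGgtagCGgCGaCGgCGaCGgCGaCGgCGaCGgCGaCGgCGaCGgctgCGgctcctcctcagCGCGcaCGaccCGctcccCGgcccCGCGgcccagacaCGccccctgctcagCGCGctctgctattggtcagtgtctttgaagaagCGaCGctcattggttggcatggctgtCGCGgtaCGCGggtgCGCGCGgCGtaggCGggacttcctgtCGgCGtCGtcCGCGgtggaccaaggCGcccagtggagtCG
Cxcl12: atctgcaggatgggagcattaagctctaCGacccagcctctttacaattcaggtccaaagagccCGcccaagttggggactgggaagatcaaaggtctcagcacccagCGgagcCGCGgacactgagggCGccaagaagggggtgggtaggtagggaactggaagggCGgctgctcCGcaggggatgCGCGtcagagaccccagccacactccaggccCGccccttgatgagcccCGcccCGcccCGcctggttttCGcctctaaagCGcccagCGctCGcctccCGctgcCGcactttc

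The 3 windows differ widely in CpG content, with 4 CpGs at Psmb11, 52 at Ccl25 and 20 at Cxcl12. The median over 27025 promoters was 7 CpGs, with quartiles of 3 and 21. A second annotated start of Ccl25 had 1 CpG. Among the other genes Aire had 16, Pax1 13, Pax9 and Epcam 11 each, and Foxn1 8. The windows of Pax1 (chr2:147364744-147365043) and Pax9 (chr12:56695221-56695520) lie wholly inside the gene spans given below, not at their first bases. A promoter was available for 8 of the 10 genes, and not for Il7 or Trp63. Methylation was not measured on these arrays. The letters GACGC, the core that Foxn1 is known to bind, were searched on both strands. Each match holds a CpG. They occurred at 2 places in the windows of Psmb11 and of the first start of Ccl25. In those of Cxcl12, Pax1 and Aire they occurred at 1 place, and 27.4% of all promoters hold them at least once. The windows of Foxn1, Pax9, Epcam and the second start of Ccl25 hold no match.

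All values below are log2 ratios of hypomorph over wild-type pool, 0 meaning equal signal. The sources do not state the direction of the deposited ratios, and hypomorph over pool is the likely reading. Its basis is that the germ cell genes Slc25a31, Ddx4 and Tex11 lay above 0 in both orientations in 27 of 30 combinations of gene and embryo, and that values at the deposited bound lay only at the upper end on arrays with the hypomorph in Cy5 and only at the lower end on arrays with it in Cy3. The exceptions, all with the hypomorph in Cy5, were Slc25a31 (-0.429) and Ddx4 (-0.625) in fibroblast embryo 4 and Ddx4 (-0.059) in fibroblast embryo 5. The Y-linked gene Eif2s3y was at 1.76 in Cy5 and -0.43 in Cy3 in fibroblast embryo 4. In thymus it was at -3.00 and -3.86 in embryo 1 and at 0.66 and 0.77 in embryo 2. The sex of the embryos was not taken into account. Each array was centred on its median, and an embryo was given the average of its Cy5 mean and its Cy3 mean. Over the repeat arrays of an embryo, 3 fibroblast arrays (arrays 2 and 4 of embryo 1 and array 4 of embryo 4) and 4 thymus arrays (arrays 1 and 2 of embryo 1 and both arrays of embryo 5) correlated below 0, on average, with the others once the mean of their orientation was removed. Array 4 of fibroblast embryo 1 correlated at 0.879 with array 3 of fibroblast embryo 2, the highest of all pairs of arrays of the same tissue and orientation. Dnmt3b itself averaged -0.08 ± 0.15 in hypomorph thymus and 0.11 ± 0.11 in hypomorph fibroblasts (SD, n = 5 each), and passed the test in neither (limma adjusted p = 0.918 and 0.359).

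In hypomorph thymus none of the 10 thymic epithelial identity genes passed the test against the pool. The test was limma's, two-sided, over all 21949 features with Benjamini-Hochberg adjustment and a threshold of 0.05, and 0.0228% of all features passed it, 5 in number. The means of the 10 genes ran from -0.14 for Il7 to 0.11 for Pax9, 4 above 0 and 6 below, and 54.9% of all features had a mean above 0. The median of the 10 was -0.02, against 0.01 over all features. None of the 10 had the same sign in all 5 embryos, as 8.39% of all features did. At an unadjusted p under 0.05 there was 1 gene, Il7, against 7.49% of all features. The exact sign-flip permutation test over 5 embryos cannot go below p = 0.0625, and it gave between 0.125 and 0.688 for the 10 genes.

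**Figure D1:**
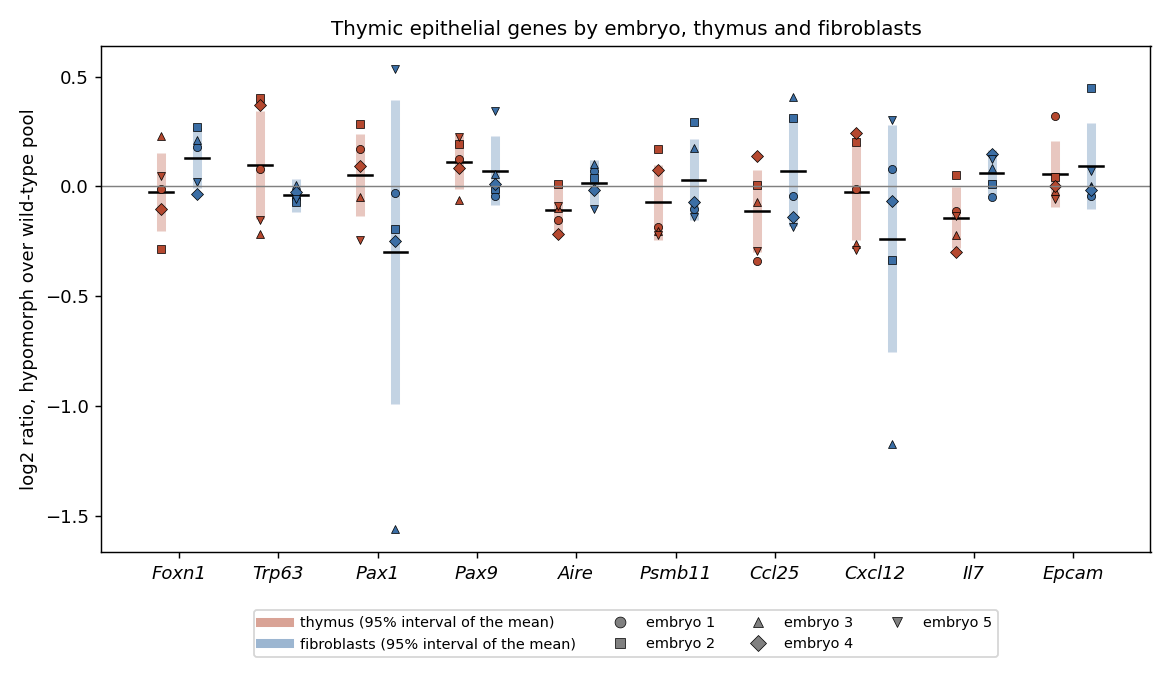
Log2 ratio of hypomorph over wild-type pool (vertical axis) of the 10 thymic epithelial identity genes, thymus left and fibroblasts right of each gene. Symbols are the 5 embryos of each tissue, black bars their means and shaded bars limma's 95% intervals of the mean. Thymus means lie between -0.14 and 0.11, and the widest spread is that of Pax1 in fibroblasts, with embryo 3 at -1.56.

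Foxn1 (chr11:78357577-78386783) encodes the forkhead factor without which the thymic epithelium does not mature. Its ratios in the thymus of hypomorph embryos 1 to 5 were -0.01, -0.28, 0.23, -0.10 and 0.05. They lay on both sides of 0, with embryo 3 highest and embryo 2 lowest. The mean was -0.03 ± 0.19 (SD, n = 5; limma adjusted p = 0.962), a ratio of 0.983 with a 95% interval of 0.870 to 1.11.

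Trp63 (chr16:25683763-25892088) encodes p63, which maintains the progenitors of stratified and thymic epithelium. Its thymus ratios were 0.08, 0.40, -0.22, 0.37 and -0.15 in hypomorph embryos 1 to 5, the widest range of the 10 genes at 0.62. Embryos 2 and 4 were high and embryos 3 and 5 low. The mean was 0.10 ± 0.29 (SD, n = 5; limma adjusted p = 0.924), with a 95% interval of -0.15 to 0.34.

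Pax1 (chr2:147361930-147375049) and Pax9 (chr12:56691693-56712824) encode paired box factors of the pharyngeal pouches from which the thymus forms. Pax1 had thymus ratios of 0.17, 0.28, -0.05, 0.09 and -0.24 in hypomorph embryos 1 to 5. Their mean was 0.05 ± 0.20 (SD, n = 5; limma adjusted p = 0.933). Embryos 1, 2 and 4 were above 0 and embryos 3 and 5 below, with embryo 5 lowest. Pax9 had ratios of 0.13, 0.19, -0.06, 0.08 and 0.22, above 0 in 4 of 5 embryos. Its mean was 0.11 ± 0.11 (SD, n = 5; limma adjusted p = 0.736; unadjusted p = 0.0726), the highest of the 10 genes.

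Aire (chr10:78030022-78043610) encodes the regulator by which medullary epithelium expresses tissue antigens. Its thymus ratios were -0.15, 0.01, -0.10, -0.22 and -0.09 in hypomorph embryos 1 to 5, the narrowest range of the 10 genes at 0.23. Embryo 2 alone lay above 0. The mean was -0.11 ± 0.08 (SD, n = 5; limma adjusted p = 0.685; unadjusted p = 0.0552), a ratio of 0.927 with a 95% interval of 0.858 to 1.00.

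Of 6 tissue antigens known to need Aire, 4 were on the arrays, and none had an unadjusted p under 0.05 in hypomorph thymus. Their means ran from -0.09 to 0.16, with 2 above and 2 below 0 and a median of 0.01.

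Psmb11 (chr14:54625310-54629556) encodes the proteasome subunit beta5t, found in cortical epithelium. In hypomorph embryos 1 to 5 its thymus ratios were -0.18, 0.17, -0.20, 0.07 and -0.22. Embryos 2 and 4 were above 0, and the other 3 lay close together below it. The mean was -0.07 ± 0.18 (SD, n = 5; limma adjusted p = 0.922), a ratio of 0.951 with a 95% interval of 0.845 to 1.07.

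The other catalytic proteasome subunits, which every cell or immune cells in general use, had a median of -0.09 in hypomorph thymus, with 5 of 6 below 0. Over all features 54.9% had a thymus mean above 0. Psmb6, a constitutive subunit, averaged -0.12 ± 0.08 and lay below 0 in all 5 embryos, with an unadjusted p of 0.0333 and a limma adjusted p of 0.604. Psmb5 averaged -0.07 and Psmb7 -0.07, both constitutive, and Psmb7 too lay below 0 in all 5 embryos. The same sign in all 5 was found in 8.39% of all features, and an unadjusted p under 0.05 in 7.49%. Of the immunoproteasome subunits Psmb8 averaged 0.01, Psmb9 -0.10 and Psmb10 -0.11. None of the 6 passed the test in either tissue, and the 6 means in hypomorph fibroblasts lay between 0.00 and 0.27.

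Ccl25 (chr8:4325205-4360020) encodes the chemokine that draws Ccr9-bearing progenitors and thymocytes. Its thymus ratios in hypomorph embryos 1 to 5 were -0.34, 0.01, -0.07, 0.14 and -0.29. Embryos 1 and 5 were low and embryo 4 highest. The mean was -0.11 ± 0.20 (SD, n = 5; limma adjusted p = 0.905), with a 95% interval of -0.30 to 0.07.

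Cxcl12 (chr6:117168535-117181368) encodes the ligand of Cxcr4 and Ackr3, and thymic epithelium and mesenchyme both make it. Its thymus ratios were -0.01, 0.20, -0.26, 0.24 and -0.29 in hypomorph embryos 1 to 5, with a mean of -0.02 ± 0.25 (SD, n = 5; limma adjusted p = 0.974). Embryos 2 and 4 were high and embryos 3 and 5 low, as with Trp63. Both probes were highest in embryos 2 and 4 and lowest in embryos 3 and 5, and their means differed in sign: probe 37.12.5 averaged -0.08 ± 0.30 and probe 37.9.5 averaged 0.04 ± 0.22. Without the 4 thymus arrays that correlated below 0, which leaves 4 embryos, the mean of Cxcl12 was 0.065 and that of Pax1 0.13, the 10 means ran from -0.15 to 0.16, and none of the 10 passed.

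Il7 (chr3:7572028-7613760) encodes the cytokine on which early thymocytes depend for survival. Its thymus ratios were -0.11, 0.05, -0.22, -0.30 and -0.13 in hypomorph embryos 1 to 5. It was below 0 in 4 of 5 embryos, with embryo 4 lowest and embryo 2 alone above 0. The mean was -0.14 ± 0.13 (SD, n = 5), a ratio of 0.906 with a 95% interval of 0.823 to 0.997. The unadjusted p was 0.0447, the smallest of the 10 genes, and the limma adjusted p was 0.656.

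The receptors of these ligands did not pass the test in hypomorph thymus either. Ccr9, the receptor of Ccl25, lay below 0 in all 5 embryos, at -0.58, -0.02, -0.23, -0.05 and -0.26, with a mean of -0.23 ± 0.22 (SD, n = 5; unadjusted p = 0.0311; limma adjusted p = 0.593). Embryo 1 was lowest for both Ccr9 and Ccl25. Cxcr4 averaged 0.07 ± 0.53 and spread from -0.65 in embryo 3 to 0.57 in embryo 2. The scavenging receptor Ackr3 averaged -0.13 ± 0.20, and the Il7 receptor chains Il7r and Il2rg averaged 0.01 ± 0.13 and -0.10 ± 0.15 (SD, n = 5 each; limma adjusted p between 0.858 and 0.988 for these 4 receptors).

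Epcam (chr17:87635979-87651127) encodes an adhesion molecule of epithelia by which thymic epithelial cells are commonly sorted. Its thymus ratios were 0.32, 0.04, -0.02, 0.00 and -0.06 in hypomorph embryos 1 to 5. Embryo 1 stood apart above the other 4, which lay near 0. The mean was 0.06 ± 0.15 (SD, n = 5; limma adjusted p = 0.928), and -0.01 without embryo 1.

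Of 8 genes of epithelial junctions, none passed the test in hypomorph thymus, and 2 had an unadjusted p under 0.05, both higher, with a median of 0.04 over the list. That p was reached by 7.49% of all features. Cdh1, which encodes E-cadherin, averaged 0.19 ± 0.20, and Perp, a desmosomal protein, averaged 0.35 ± 0.34 (SD, n = 5 each; unadjusted p = 0.0456 and 0.0241; limma adjusted p = 0.658 and 0.555). Both were above 0 in 4 of 5 embryos and highest in embryo 2, then embryo 4. The desmosomal gene Dsp averaged -0.07 and the claudin gene Cldn7 averaged -0.05, the 2 of the 8 with a mean below 0 (both named after their values were seen). The 4 thymic epithelial keratins ran from -0.06 to 0.09, with a median of -0.01.

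For 7 of the 10 genes the SD between hypomorph embryos was larger than the absolute mean, the exceptions being Aire, Pax9 and Il7. The median absolute mean of the 10 in thymus was 0.08 against 0.05 over all features, and their median SD over embryos was 0.19 against 0.14. Trp63, Psmb11, Ccl25 and Cxcl12, 4 of the 10, had their 2 highest values in embryos 2 and 4, as did 22.5% of all features. Over embryos 1 to 5 the median of the 10 genes was -0.01, 0.11, -0.08, 0.08 and -0.14. The median of 12 thymocyte markers was -0.21, 0.24, -0.15, 0.11 and -0.19, so it too was above 0 in embryos 2 and 4 alone. That of 3 erythroid markers was 0.11, -0.74, 0.71, -0.85 and 0.19, below 0 in the same embryos. The gap between the Cy5 and Cy3 medians of the deposited arrays was 0.03, 1.79, 1.11, 1.83 and -0.25, widest in embryos 2 and 4. The part of cell composition and of the dye gap in this order was not tested.

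Likeness between genes was measured as the root mean square difference of their 5 thymus embryo ratios. Among the 10 genes Aire and Il7 were closest at 0.07, followed by Psmb11 with Cxcl12 at 0.12 and Psmb11 with Ccl25 at 0.13. For Trp63, the gene of widest range, the closest genes on the arrays were Coil at 0.03, then Vim, Ssb, Atxn2 and Cldn5 at 0.05 each, and 166 of 18173 genes lay within 0.1. For Il7, the gene of smallest p, they were Polr3gl at 0.03, Pdcd2l and Use1 at 0.04 each, and Stx4a and Smpd2 at 0.05 each, with 209 genes within 0.1.

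In hypomorph fibroblasts, which serve as background because most of the 10 genes belong to epithelium, none of the 10 passed the test, against 0.00454% of 22025 features, and none had an unadjusted p under 0.05, against 16.0% of features. The means ran from -0.30 for Pax1 to 0.13 for Foxn1, 7 above 0 and 3 below, with a median of 0.05, and 49.1% of features had a mean above 0. None of the 10 had the same sign in all 5 fibroblast embryos, against 16.8% of features. Foxn1 had ratios of 0.18, 0.27, 0.21, -0.03 and 0.02 in fibroblast embryos 1 to 5, with a mean of 0.13 ± 0.13 (SD, n = 5; limma adjusted p = 0.327). Embryos 1 to 3 were high and embryos 4 and 5 near 0. It was the 1 gene of the 10 to pass in the fit on single arrays with the embryo as a random block (limma adjusted p = 0.041), a fit in which 9.9% of all features passed.

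Trp63, Aire and Il7 varied least in fibroblasts, at -0.04 ± 0.03, 0.02 ± 0.08 and 0.06 ± 0.08 (SD, n = 5 each). Pax9, Psmb11, Ccl25 and Epcam averaged 0.07 ± 0.16, 0.03 ± 0.19, 0.07 ± 0.27 and 0.09 ± 0.20 (SD, n = 5 each). Trp63 thus ranged over 0.62 in hypomorph thymus and 0.08 in hypomorph fibroblasts, and the difference in spread was not tested.

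Pax1 and Cxcl12, both also used by mesenchyme, spread most widely in hypomorph fibroblasts. Pax1 was at -0.03, -0.19, -1.56, -0.25 and 0.53 in fibroblast embryos 1 to 5, with a mean of -0.30 ± 0.77 (SD, n = 5; limma adjusted p = 0.630). Cxcl12 was at 0.08, -0.33, -1.17, -0.07 and 0.30, with a mean of -0.24 ± 0.57 (SD, n = 5; limma adjusted p = 0.608). Embryo 3 was lowest and embryo 5 highest for both. The Y-linked gene Eif2s3y was at 1.03 in Cy5 and 0.97 in Cy3 in fibroblast embryo 3. In fibroblast embryo 5 it was at -3.56 and -3.83, and in embryos 1 and 2 it was below 0 in both orientations. The part of sex in the values of Pax1 and Cxcl12 was not tested. In embryo 3 all 4 arrays were low, from -2.13 to -1.18 for Pax1. In embryo 2 the 4 arrays of Pax1 read -0.43, 0.84, 0.90 and -2.07, so that repeats of 1 embryo differed by more than the embryo means did. Array 4 of embryo 2, the lowest of these, correlated at 0.714 with array 2 of embryo 3, which read -2.13, and at 0.544 with the other array of embryo 2 in its own orientation. In embryo 4 arrays 1, 2 and 3 of Pax1 read -0.65, -0.78 and -0.50, and array 4 read 0.93. Array 4 of embryo 4 correlated at 0.559 with array 1 of embryo 5. It correlated at 0.357 with the other array of embryo 4 in its own orientation. Whether each fibroblast array carries the label of its own embryo was not tested. This limits what the values of fibroblast embryos 1 to 5 and their repeat spread mean. The SD of Pax1 between repeat arrays of the same embryo and orientation was 0.88 in fibroblasts and 0.07 in thymus. Without the 3 fibroblast arrays that correlated below 0 the mean of Pax1 was -0.39 and that of Cxcl12 was -0.24. Without embryo 2 these means were -0.33 and -0.21, and without embryo 3 they were 0.02 and 0.00 (Pax1 first in each pair). Fibroblast embryo 3 also had the highest median of 7 mesenchyme markers, at 0.85, and of 3 erythroid markers, at 1.64. Its mesenchyme markers ran from -1.34 for Col1a1 to 4.63 for Dcn, and the erythroid marker Alas2 was at -0.08. The part of these markers in the values of Pax1 and Cxcl12 was not tested.

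**Figure D2:**
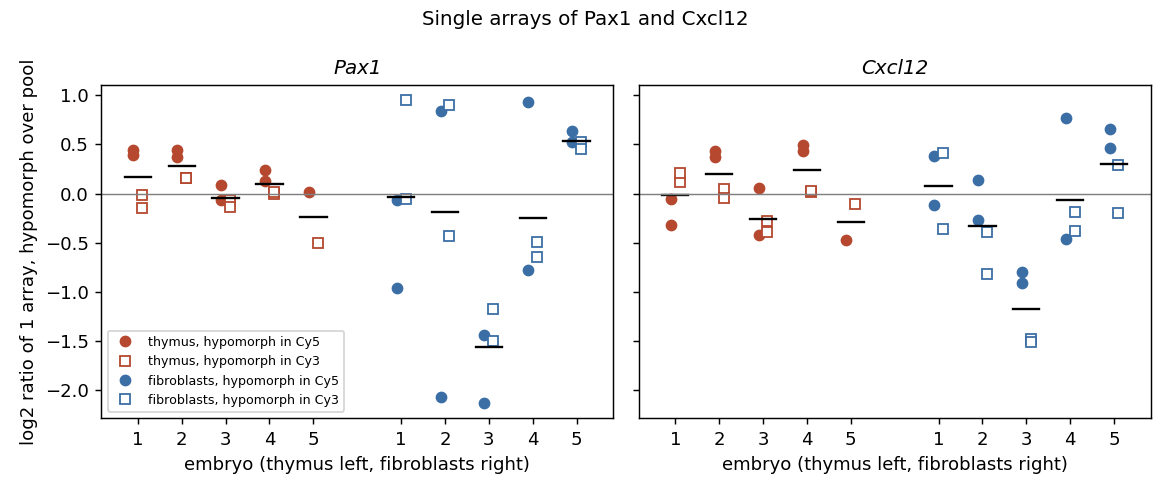
Log2 ratio of each single array (vertical axis) for Pax1 and Cxcl12 by embryo (horizontal axis), thymus left and fibroblasts right in each panel. Filled circles are arrays with the hypomorph in Cy5, open squares arrays with it in Cy3, and black bars the embryo values. Pax1 repeats in fibroblast embryo 2 run from -2.07 to 0.90, while all 4 arrays of fibroblast embryo 3 lie at or below -1.18.

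Set against fibroblasts, hypomorph thymus showed no passing difference for any of the 10 genes. The difference of the hypomorph-over-pool ratios was tested with limma over all 10 embryos, and 0.412% of 21852 features passed. Il7 had the smallest p of the 10, with a mean of -0.14 in thymus and 0.06 in fibroblasts, a difference of -0.21 (95% interval -0.37 to -0.04; unadjusted p = 0.0174; limma adjusted p = 0.219). It was the 1 gene of the 10 with an unadjusted p under 0.05, against 15.4% of features. Its ratios overlapped between the tissues, from -0.30 to 0.05 in thymus and from -0.05 to 0.15 in fibroblasts. Aire differed by -0.13 (95% interval -0.26 to 0.01; limma adjusted p = 0.365) and Foxn1 by -0.15 (95% interval -0.37 to 0.06; limma adjusted p = 0.494). The widest intervals were those of Pax1, from -0.33 to 1.03, and Cxcl12, from -0.32 to 0.75.

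For several of these genes the values of the 2 dye orientations lay further apart than any mean lay from 0. Pax9 in hypomorph thymus was below 0 on all 9 arrays with the hypomorph in Cy5, from -0.89 to -0.35, and above 0 on all 9 with it in Cy3, from 0.18 to 0.94. Its means were -0.46 in Cy5 and 0.69 in Cy3, and in fibroblasts -0.59 in Cy5 and 0.74 in Cy3. Psmb11 averaged -0.36 in Cy5 and 0.22 in Cy3 in thymus, and -0.65 in Cy5 and 0.72 in Cy3 in fibroblasts. Epcam had means of -0.61 in Cy5 and 0.80 in Cy3 in fibroblasts but 0.16 and -0.05 in thymus. A gap over 0.5 between orientations was found for 2 of the 10 genes in thymus, against 26.01% of features, and for 4 in fibroblasts, against 24.04%. Trp63 and Cxcl12 had the smallest thymus gaps, 0.04 and 0.06. Within one orientation 2 of the 10 genes passed in thymus with Cy5, Pax9 and Psmb11, both lower, where 22.1% of all features passed. In thymus with Cy3 3 of the 10 passed, Pax9 higher and Aire (-0.25) and Il7 (-0.24) lower, where 23.8% of all features passed, with limma adjusted p of 0.0441 for Aire and 0.0480 for Il7. In fibroblasts 4 of the 10 passed with Cy5, against 28.4% of features, and 4 with Cy3, against 36.8%. For thymus minus fibroblasts 2 of the 10 passed with Cy3, against 1.3% of features, and none of the 10 with Cy5. These 2 were Ccl25 and Epcam, at -0.46 and -0.84 with Cy3 but 0.10 and 0.77 with Cy5. The shares of the 10 within a single tissue lay near those of all features. In the other orientation Aire averaged 0.03 and Il7 -0.04, and neither passed. Values within a single orientation carry the dye effect.

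**Figure D3:**
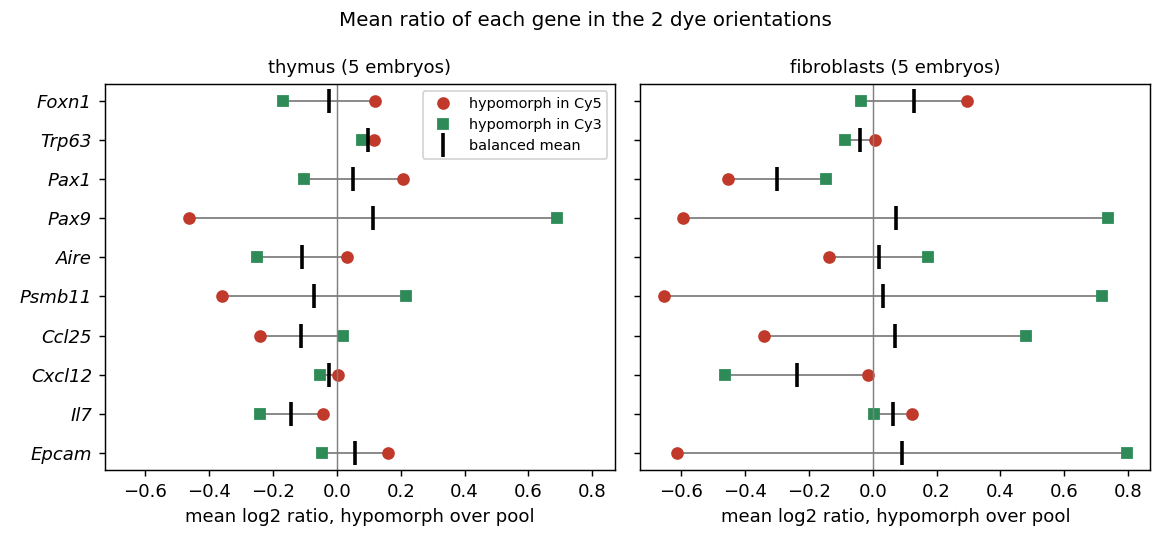
Mean log2 ratio over 5 embryos (horizontal axis) of each gene on arrays with the hypomorph in Cy5 (circles) and in Cy3 (squares), with the balanced mean as a black tick, thymus left and fibroblasts right. Pax9 lies at -0.46 and 0.69 in thymus, while its balanced mean is 0.11.

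Other genes of the thymic epithelium were described beside the 10, from a list of 24 of which 22 were on the arrays. None of the 22 passed in hypomorph thymus, and 4 had an unadjusted p under 0.05, 1 higher and 3 lower. That p was reached by 7.49% of all features. The median over the list was 0.01, with 13 means above 0 and 9 below. Wnt4, a secreted factor upstream of Foxn1, was above 0 in all 5 embryos, at 0.22, 0.28, 0.07, 0.25 and 0.23, with a mean of 0.21 ± 0.08 (SD, n = 5; unadjusted p = 0.00294; limma adjusted p = 0.304). Ccl19, a chemokine of the medulla, averaged -0.19 ± 0.13, Ackr4, a scavenger of Ccl19 and Ccl25, averaged -0.21 ± 0.15, and Fezf2, a medullary regulator of tissue antigens, averaged -0.13 ± 0.06 (SD, n = 5 each; limma adjusted p between 0.472 and 0.515). These 3 lay below 0 in all 5 embryos, as did Cd40, with a mean of -0.09. Hoxa3, with a mean of 0.05, lay above 0 in all 5, as Wnt4 did. The same sign in all 5 embryos was found in 8.39% of all features. Prss16, a protease of cortical epithelium, was at -0.20, 0.40, -0.30, 0.27 and -0.41, high in embryos 2 and 4 as Psmb11 and Cxcl12 were. Its mean was -0.05 ± 0.36 (SD, n = 5; limma adjusted p = 0.958). Ctsl, Ly75, Enpep, Cd83, Ccl19, Ccl21a, Kitl, Wnt4 and Ltbr of the same list also had their 2 highest values in embryos 2 and 4. That order was found in 22.5% of all features. Dll4, Eya1, Tbx1 and Tnfrsf11a of the list had their lowest values in embryos 2 and 4. Prss16 and these genes, except Ccl19 and Wnt4, were named after their values were seen, as were Cd40 and Hoxa3.

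Markers of other thymic cells did not pass in hypomorph thymus. Of 12 thymocyte markers 4 had a mean above 0 and 8 below. Cd3d was below 0 in all 5 embryos with a mean of -0.21 ± 0.04, and Ptcra was above 0 in all 5 with a mean of 0.11 ± 0.06 (SD, n = 5 each; limma adjusted p = 0.260 and 0.588). The same sign in all 5 was found in 8.39% of all features. Dntt averaged -0.80 ± 1.1 and Rag1 -0.13 ± 0.78 (SD, n = 5 each; limma adjusted p = 0.744 and 0.948), both above 0 in embryos 2 and 4 alone. All 7 mesenchyme markers had means below 0 in thymus, with a median of -0.13 against 0.27 in fibroblasts. Over all features 54.9% had a thymus mean above 0. Col1a2, Col3a1 and Dcn averaged -0.37, -0.30 and -0.30 with an unadjusted p under 0.05, reached by 7.49% of all features. Col1a1, Pdgfra and Pdgfrb lay near 0, at -0.005, -0.04 and -0.02. Alas2, an erythroid enzyme, averaged 0.50 ± 0.57 (SD, n = 5; limma adjusted p = 0.631) and lay above 0 in 3 of 5 embryos. The erythroid markers Hba-a1 and Hbb-b1 averaged -0.17 and -0.16. The medians in thymus were 0.00 for 5 endothelium, 0.00 for 5 myeloid and dendritic, 0.08 for 3 B cell, -0.16 for 3 erythroid, 0.06 for 2 parathyroid and -0.02 for 4 thyroid markers. Their part in the ratios of the 10 genes was not tested.

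**Figure D4:**
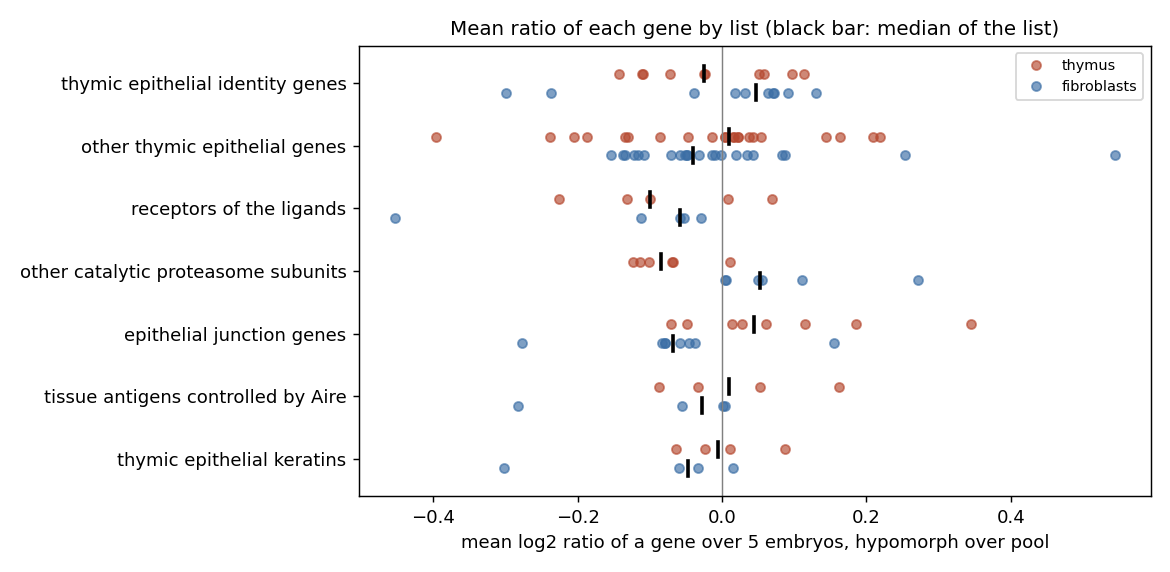
Mean log2 ratio over 5 embryos (horizontal axis) of each gene, by list, thymus above fibroblasts, with the median of each list as a black bar. The 10 thymic epithelial identity genes have medians of -0.02 in thymus and 0.05 in fibroblasts, and no gene drawn passed the test in thymus.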

How the data were processed

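Two-colour arrays of 18 hypomorph thymus and 20 hypomorph fibroblast hybridisations against wild-type pools were used. The deposited table holds log2 ratios for 25344 probes. Total RNA was amplified, labelled and read on an Agilent G2565AA scanner, per the labels; neither the image analysis software nor any correction or normalization step is stated there. Scanner intensities were not used here, so signal over background is unknown. Array medians ran from -0.887 to 1.14, so each array was centred on its median, and values at the deposited bound (16.6 on the log2 scale) were treated as missing. Scale and direction were read from the values, and direction is likely, not settled. Probes were named through GEO's platform annotation and RefSeq (GRCm38.p6): 21111 had 1 symbol and 4233 none. Probes of 1 gene were averaged, dye orientations were averaged within an embryo, and a feature needed all 5 embryos. The embryo was the replicate, its arrays technical repeats. Tests used lmFit and eBayes of limma 3.58.1 in R 4.3.3, two-sided, Benjamini-Hochberg adjusted over all features, and were tested on simulated data. The 5 embryos per tissue set the precision, and neither the spread of the pool nor signal over background can be added to it.

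The 10 genes and the lists were chosen with earlier results of these data known. Named besides the 10 were genes of the other lists with an unadjusted p under 0.05 in thymus, the receptors and the proteasome subunits. So were the 5 genes most like the gene of widest range and those most like the gene of smallest p. Prss16, Dll4, Eya1, Tbx1, Tnfrsf11a, Dsp, Cldn7, Col1a1, Pdgfra, Pdgfrb, Hba-a1 and Hbb-b1 were added after their values were seen. Ctsl, Ly75, Enpep, Cd83, Ccl21a, Kitl, Ltbr, Cd40, Hoxa3, Dntt and Rag1 were added in the same way. The 4 thymus arrays were left out as an alternative chosen after seeing the data. Replicate numbers do not pair the tissues, since the embryos differ in age.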

Additional observations from a re-analysis of the deposited data

Results flagged for a closer look

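Single embryos stood apart by Dixon's criterion for 5 values in 5 of 43 combinations of gene and tissue, where chance flags about 1 in 20. Epcam in thymus was at 0.32 in embryo 1, and in fibroblasts at 0.45 in embryo 2. Pax9 was at 0.34 in fibroblast embryo 5. Among the other named genes Il7r was at -0.22 in thymus embryo 5 and Psmb8 at -0.18 in thymus embryo 1. Fezf2 lay below 0 in every hypomorph thymus embryo and above 0 in every hypomorph fibroblast embryo, though the fibroblast values were close to 0. Their mean was 0.035, with embryo 3 at 0.0005 and embryo 5 at 0.006. The difference of -0.17 did not pass the test of the difference itself (limma adjusted p = 0.162). The share of all features with opposite signs in this way was not counted. One sign in all 5 embryos was found in 8.39% of features in thymus and 16.8% in fibroblasts.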

How the results depend on the processing

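The 10 genes stayed without a call in thymus, in fibroblasts and for the difference under every alternative run except single dye orientations and single arrays. With Cy5 alone 2 of the 10 passed in thymus, against 22.1% of all features, and 4 in fibroblasts (Pax9, Psmb11 and Epcam lower, Foxn1 higher), against 28.4%. With Cy3 alone 3 passed in thymus, against 23.8%, and 4 in fibroblasts (Ccl25, Epcam, Pax9 and Psmb11, all higher), against 36.8%. For the difference 2 passed with Cy3 alone, Ccl25 (-0.46) and Epcam (-0.84), against 1.3%. With Cy5 alone their differences had the other sign, 0.10 for Ccl25 and 0.77 for Epcam, and neither passed. With both orientations they were -0.18 and -0.03. With single arrays 1 passed in fibroblasts, Foxn1, against 9.9%.

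Over all features the count called in thymus was 5. It was 1 without centring, 13 with arrays scaled to equal spread, 4881 with Cy5 alone, 5244 with Cy3 alone, 9 with each probe by itself, 9 without the 3 arrays that lack the genotype, 0 without the 4 arrays that correlated below 0, 406 with single arrays, and 0 to 4 with 1 embryo left out (0 without embryo 1, 3 or 5). The count in fibroblasts was 1. It was 8 without centring, 2 scaled, 6298 with Cy5 alone, 8145 with Cy3 alone, 0 with values at the bound kept or with at least 3 embryos, 7 without the 3 fibroblast arrays that correlated below 0, 2106 with single arrays, and 0 to 38 with 1 embryo left out (38 without embryo 4). The count for the difference was 90. It was 17 without centring, 0 with Cy5 alone, 285 with Cy3 alone, 1566 with single arrays, and 1 to 374 with 1 embryo left out (1 without thymus embryo 5, 374 without fibroblast embryo 4). With the embryo number as a replicate block it was 1 and none of the 10 genes passed, but the samples share only a number: deviations of same-numbered thymus and fibroblast embryos correlated across features between -0.04 and 0.09, and 1 of 5 thymus embryos correlated best with its own number. Leaving out 1 embryo costs degrees of freedom, and the causes of the other changes were not tested.

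Means of the 10 genes changed sign under some alternatives. In thymus this happened without centring for Cxcl12 (0.006) and Foxn1 (0.005). With Cy5 alone it happened for Aire (0.032), Cxcl12 (0.005), Foxn1 (0.118) and Pax9 (-0.464), and with Cy3 alone for Ccl25 (0.018), Epcam (-0.045), Pax1 (-0.104) and Psmb11 (0.216). Cxcl12 turned with probe 37.9.5 (0.037), without the arrays lacking the genotype (0.001) and without the 4 arrays (0.065). In fibroblasts Cy5 alone turned Aire (-0.137), Ccl25 (-0.339), Epcam (-0.614), Pax9 (-0.595), Psmb11 (-0.655) and Trp63 (0.006), and Cy3 alone turned Foxn1 (-0.036). With 1 embryo left out the lowest and highest values had opposite signs in thymus for Cxcl12 (-0.09 to 0.043), Epcam (-0.008 to 0.086), Foxn1 (-0.089 to 0.039), Pax1 (-0.007 to 0.125), and in fibroblasts for Aire (-0.003 to 0.048), Ccl25 (-0.014 to 0.135), Pax1 (-0.508 to 0.016), Psmb11 (-0.034 to 0.074).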
